A study of Mus musculus with 20 samples.

Results

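The 6 genes Chn2, Phactr2, Coro2a, Lysmd2, Pcsk1 and Car2 were followed across CD4 T cells of C57BL/6 mice aged 8 to 12 weeks, out of 22068 gene symbols in the count table. They were chosen by their large CD5hi-to-CD5lo differences in fresh and rested naive cells of these libraries, in genes that are not classical targets of the T cell receptor (TCR), and all 6 were among the 13309 genes that passed the filter on low counts. The differences between CD5hi and CD5lo cells and the level in regulatory T cells (Treg) belong to that choice, so they are described here without a test. The change on resting did not enter it and is tested.

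Transcripts were sequenced in 5 groups of 4 libraries from pooled spleen and lymph nodes of male and female mice. Naive cells were TCRb+ CD4+ CD8- CD44lo and outside the Foxp3-GFP gate, from the 15% of highest or the 15% of lowest surface CD5, here CD5hi and CD5lo. CD5hi and CD5lo cells were lysed after 22 hours of dissociated culture with IL-7 at 10 ng/mL (rested), or directly after the sort (fresh). Treg were the Foxp3-GFP+ cells of the same kind of sort, lysed directly. All sorts left out cells stained for lineage or activation markers (CD69, NK1.1, Ly6G, CD11b, CD11c, B220 and F4/80). The Foxp3-GFP reporter is the only transgene named in the labels, all 5 groups were gated on it, and its construct is not given in the sources used here.

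CD5 restrains TCR signalling, and its surface level on a naive T cell follows how strongly that cell's receptor engages self-peptide. Treg arise from cells with comparatively strong self-recognition, so genes that rank with CD5 among naive cells are often compared with Treg. The 6 genes act outside the receptor complex. Chn2 encodes beta-chimaerin, which is recruited to membranes by diacylglycerol, the lipid made by phospholipase C on TCR engagement, and switches off the GTPase Rac. Phactr2 encodes a protein that binds actin and protein phosphatase 1. Coro2a encodes a coronin, of a family of actin-associated WD-repeat proteins, and has been described in mouse macrophages as a subunit of the NCoR corepressor complex. Lysmd2 encodes a protein with a LysM domain whose role in T cells is not established. Pcsk1 encodes proprotein convertase 1/3, known from neuroendocrine cells, where it cleaves prohormones, and Car2 encodes the cytosolic carbonic anhydrase II, which interconverts CO2 and bicarbonate.

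RefSeq promoter windows (build GRCm38.p6, 250 bases before to 50 after an annotated start) were found for 4 of the 6 genes, in 8 windows. The most upstream window of each of these 4 genes is shown. The genes lie on 6 different chromosomes, and Lysmd2 and Car2 had no window in the table. The windows were searched on both strands for the NR4A motif AAAGGTCA, the EGR motif GCGNGGGCG, the AP-1 motif TGANTCA, the cyclic AMP element TGACGTCA, the forkhead motif GTAAACA and the NFAT motif GGAAAAT, and capitals mark a match.
Chn2, chr6:54039682-54039981, plus strand: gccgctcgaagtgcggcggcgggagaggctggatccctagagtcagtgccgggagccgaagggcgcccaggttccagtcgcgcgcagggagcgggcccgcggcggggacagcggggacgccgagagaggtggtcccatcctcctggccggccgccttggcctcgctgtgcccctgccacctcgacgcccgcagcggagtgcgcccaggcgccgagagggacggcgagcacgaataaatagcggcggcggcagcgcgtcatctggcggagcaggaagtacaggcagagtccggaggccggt
Phactr2, chr10:13324240-13324539, minus strand: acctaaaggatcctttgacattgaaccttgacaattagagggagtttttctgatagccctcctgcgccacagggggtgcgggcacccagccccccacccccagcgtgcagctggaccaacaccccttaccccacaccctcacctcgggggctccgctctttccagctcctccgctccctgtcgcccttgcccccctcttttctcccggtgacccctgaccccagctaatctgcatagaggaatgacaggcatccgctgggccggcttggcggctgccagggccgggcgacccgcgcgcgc
Coro2a, chr4:46601880-46602179, minus strand: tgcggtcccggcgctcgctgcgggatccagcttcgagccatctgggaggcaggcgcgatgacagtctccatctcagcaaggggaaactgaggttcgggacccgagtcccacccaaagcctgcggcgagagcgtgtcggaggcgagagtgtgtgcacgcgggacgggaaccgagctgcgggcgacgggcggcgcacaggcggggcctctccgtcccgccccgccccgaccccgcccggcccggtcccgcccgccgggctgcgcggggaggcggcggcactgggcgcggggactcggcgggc
Pcsk1, chr13:75089607-75089906, plus strand: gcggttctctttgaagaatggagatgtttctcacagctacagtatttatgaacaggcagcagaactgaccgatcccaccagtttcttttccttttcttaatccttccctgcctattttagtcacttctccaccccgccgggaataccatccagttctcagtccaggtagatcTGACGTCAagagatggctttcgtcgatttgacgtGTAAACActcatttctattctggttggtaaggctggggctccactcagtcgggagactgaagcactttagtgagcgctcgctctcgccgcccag
The Pcsk1 window held the cyclic AMP element 78 bases and the forkhead motif 44 bases upstream of the start. Among all 32851 promoter windows, 1.79% held that cyclic AMP element and 3.65% that forkhead motif. The third of 4 Chn2 windows, not shown, held the NFAT motif 214 bases upstream, against 4.82% of all windows. The remaining letters searched were not found in the 8 windows, and are present in 1.51% (NR4A), 5.55% (EGR) and 7.81% (AP-1) of all windows. The Chn2 and Coro2a windows shown were rich in G and C, at 73.3% and 76.0%, against a median of 52.7% over all windows, whereas that of Pcsk1 stood at 49.3% and that of Phactr2 at 65.0%. Chn2 has several annotated starts, which give long and short chimaerin forms, and the counts per gene do not part them.

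The sorts followed their own markers. Cd5 averaged 461 ± 19.3 CPM in rested CD5hi cells and 94.5 ± 6.49 CPM in rested CD5lo cells (SD, n = 4 each, as throughout). It averaged 982 ± 61.3 CPM in fresh CD5hi cells and 148 ± 9.83 CPM in fresh CD5lo cells. The CPM values given are counts scaled to the library total of the genes that passed the filter, multiplied by its trimmed-mean scaling factor. Foxp3 averaged 722 ± 38 CPM in Treg and 22.4 to 28.6 CPM in the 4 naive groups. Library totals ran from 38211406 to 64477566 counts. The labels describe pools of both sexes, but 11 libraries carried reads of 4 Y-linked genes (326 to 405 CPM summed, Xist no higher than 0.721 CPM), and the other 9 carried Xist (755 to 1736 CPM, Y-linked sum no higher than 0.149 CPM). All 8 fresh libraries were of the first kind, and of the 12 rested and Treg libraries only replicate 3 of each group was. Sex therefore cannot be told apart from resting, or from the Treg difference, outside replicate 3 of the rested and Treg groups, and whether replicate 3 shared other steps of preparation with the fresh libraries is not given.

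Chn2 was high in CD5hi cells in both states and fell on resting. In rested CD5hi cells it stood at 8.32, 6.41, 8.05 and 8.09 CPM, against 0.783, 1.18, 0.444 and 0.691 CPM in rested CD5lo cells. In fresh CD5hi cells it stood at 27.7, 30.5, 27.4 and 29.2 CPM, against 2.36, 2.94, 2.97 and 2.62 CPM in fresh CD5lo cells. Every CD5hi library lay above every CD5lo library of its state, and every rested library lay below every fresh library of its CD5 group. The CD5hi-to-CD5lo difference was a log2 fold change of 3.31 ± 0.16 (SE) when rested and 3.40 ± 0.14 when fresh. Between same-numbered libraries the ratio of CD5hi over CD5lo ran from 5.42 to 18.1 when rested, on 18 to 52 counts per CD5lo library, and from 9.22 to 11.7 when fresh. A long non-coding RNA, 9130019P16Rik, overlaps Chn2 in the RefSeq annotation and averaged 0.974 CPM over all libraries. It was counted as a gene of its own, but the strand setting is not given. Whether reads of its transcript also entered the Chn2 count is therefore not known.

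Phactr2 had the same pattern. It stood at 5.12, 4.38, 3.21 and 4.02 CPM in rested CD5hi cells, against 0.762, 0.455, 0.296 and 0.691 CPM in rested CD5lo cells. In fresh CD5hi cells it stood at 16.2, 11.8, 16.1 and 14.3 CPM, against 1.74, 1.36, 1.51 and 1.30 CPM in fresh CD5lo cells. Again no CD5hi library overlapped the CD5lo libraries of its state, and no rested library overlapped the fresh libraries of its CD5 group. The difference was 2.87 ± 0.20 when rested and 3.30 ± 0.16 when fresh. Counts of Phactr2 in rested CD5lo libraries were only 12 to 41, so its level there is the least precise of its 4 naive groups.

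Coro2a was also higher in CD5hi cells but rose on resting. Rested CD5hi cells held 18.6, 17.6, 18.9 and 16.2 CPM, against 2.43, 3.14, 3.50 and 2.17 CPM in rested CD5lo cells. Fresh CD5hi cells held 6.02, 11.1, 11.1 and 7.46 CPM, against 0.390, 1.41, 0.861 and 0.642 CPM in fresh CD5lo cells. Each rested library lay above all fresh libraries of its CD5 group, and the CD5 groups did not overlap within a state. The difference was 2.68 ± 0.21 when rested and 3.42 ± 0.24 when fresh. Foxp3 was measured beside it, since Coro2a is far higher in Treg: Foxp3 was higher in rested CD5hi than in rested CD5lo cells by 0.29 ± 0.06 (edgeR adjusted p = 0.0032), and differed between fresh CD5hi and CD5lo cells by 0.11 ± 0.06 (adjusted p = 0.35). The 5 Treg markers together summed to 299 to 317 CPM in rested CD5hi cells and 278 to 305 CPM in rested CD5lo cells, and to 81.8 to 84.9 CPM in fresh CD5hi cells and 57.6 to 60.3 CPM in fresh CD5lo cells. These markers did not move alike on resting. In CD5hi cells Il2ra stood at 80.6 to 98.9 CPM when rested and 1.22 to 1.9 CPM when fresh, and Ctla4 and Tnfrsf18 also rose. Foxp3 rose less, by 0.25 ± 0.06 (edgeR adjusted p = 0.0019), and stood at 24.6 to 30.9 CPM when rested and 22.4 to 25.4 CPM when fresh. Ikzf2 was lower when rested (4.22 to 5.85 CPM) than when fresh (8.97 to 10.2 CPM). Il2ra was lower in CD5hi than in CD5lo cells of either state, and Ikzf2 was higher. The part of these markers in the Coro2a difference and in its rise on resting was not tested.

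Lysmd2 was higher in CD5hi cells, with rested levels that overlapped the fresh ones. Rested CD5hi cells held 11, 9.97, 13.7 and 10.4 CPM, against 2.06, 1.64, 2.64 and 2.24 CPM in rested CD5lo cells. Fresh CD5hi cells held 10.6, 11.3, 10.1 and 11.7 CPM, against 1.99, 1.91, 2.17 and 1.91 CPM in fresh CD5lo cells. The CD5 groups were apart in both states. The difference was 2.39 ± 0.12 when rested and 2.46 ± 0.12 when fresh.

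Pcsk1 went the other way, with the high level in CD5lo cells and a rise on resting in both CD5 groups. Rested CD5hi cells held 1.06, 1.05, 1.72 and 1.61 CPM, against 8.75, 11.5, 13.8 and 13.7 CPM in rested CD5lo cells. Fresh CD5hi cells held 0.216, 0.0902, 0.443 and 0.300 CPM, against 3.78, 3.16, 4.91 and 4.28 CPM in fresh CD5lo cells. No CD5hi library reached a CD5lo library of its state, and all rested libraries lay above the fresh ones of their CD5 group. The difference was -3.13 ± 0.25 when rested and -3.88 ± 0.30 when fresh, the lowest value among the 10990 genes of at least 1 CPM in the higher fresh group. The fresh CD5hi level rests on 4 to 25 counts per library, and without fresh CD5hi replicate 3 the fresh difference was -4.24. Of 4 neuroendocrine marker genes, Chga and Scg2 had no count in either fresh group, and the 4 together summed to 0.660 to 1.37 CPM in rested CD5hi cells, 0.573 to 1.01 CPM in rested CD5lo cells, 0.975 to 1.47 CPM in fresh CD5hi cells and 0.527 to 0.665 CPM in fresh CD5lo cells.

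Car2 was likewise lower in CD5hi cells, and its rested and fresh levels overlapped. Rested CD5hi cells held 2.39, 2.07, 4.09 and 3.08 CPM, against 8.40, 8.87, 14.6 and 13.8 CPM in rested CD5lo cells. Fresh CD5hi cells held 3.43, 2.21, 3.46 and 2.68 CPM, against 13.5, 11.4, 10.1 and 11.5 CPM in fresh CD5lo cells. The CD5 groups were apart in both states. The difference was -1.97 ± 0.21 when rested and -1.98 ± 0.21 when fresh. Car2 is also a gene of red blood cell precursors, so 6 erythroid markers were read beside it. They summed to 0.345 to 10.2 CPM in rested CD5hi cells and 0.330 to 6.76 CPM in rested CD5lo cells, against 18 to 41.1 CPM in fresh CD5hi cells and 27.7 to 61.1 CPM in fresh CD5lo cells. Car2 averaged 11.4 ± 3.23 CPM in rested CD5lo cells and 11.6 ± 1.41 CPM in fresh CD5lo cells. The part of erythroid transcripts in the Car2 levels was not tested.

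The summed markers of CD8 T cells and of thymocytes were, like Pcsk1 and Car2, lower in CD5hi than in CD5lo cells of either state. Cd8b1 made up most of the CD8 sum, at 5.52 to 7.79 CPM in rested CD5hi and 18 to 21.5 CPM in rested CD5lo cells. In fresh cells Cd8b1 stood at 7.22 to 8.54 CPM (CD5hi) and 28.1 to 34.1 CPM (CD5lo). Cd8a, at no more than 1.33 CPM in naive cells, overlapped between CD5hi and CD5lo cells of either state. Cd8a and Cd8b1 together summed to 6.21 to 8.09 CPM in rested CD5hi cells and 18.5 to 22.3 CPM in rested CD5lo cells, and to 7.98 to 8.92 CPM in fresh CD5hi cells and 28.9 to 35.0 CPM in fresh CD5lo cells. The 5 thymocyte markers, Cd8b1 among them, summed to 12.1 to 15.0 CPM in rested CD5hi cells and 52.0 to 58.0 CPM in rested CD5lo cells, and to 14.7 to 18.3 CPM in fresh CD5hi cells and 66.9 to 77.2 CPM in fresh CD5lo cells. Rag2 had no count in any of these 4 groups. In CD5lo cells both sums were lower in all rested than in all fresh libraries, whereas Pcsk1 was higher. The thymocyte marker Dntt overlapped between these libraries, at 27 to 33.9 CPM when rested and 25.8 to 32.6 CPM when fresh. In Treg, where Pcsk1 and Car2 were low, the thymocyte markers summed to 30.8 to 40.3 CPM. Most of that sum was Ccr9 (16.6 to 25.5 CPM) and Cd8b1 (12.6 to 14.5 CPM), while Dntt was low there too (1.6 to 2.35 CPM). The part of the CD8 and thymocyte markers in the Pcsk1 and Car2 differences was not tested. In bulk samples fewer cells of a type and less RNA per cell cannot be told apart.

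**Figure D1:**
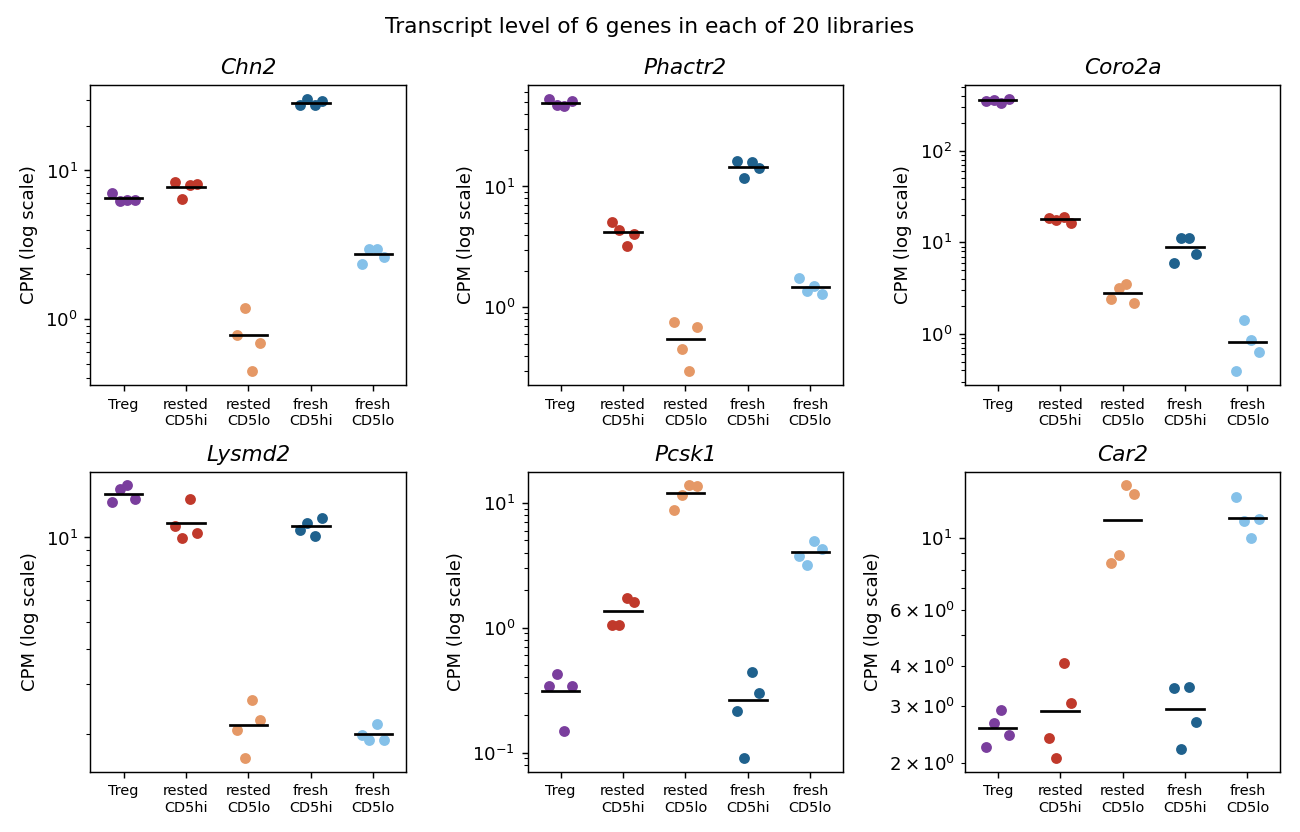
Level of each gene in CPM (log scale) in every library, with 1 point per library and a line at the mean of the 4 libraries of a group. The groups run from Treg over rested CD5hi, rested CD5lo and fresh CD5hi to fresh CD5lo cells. In each panel the CD5hi points are apart from the CD5lo points of the same state, upward for Chn2, Phactr2, Coro2a and Lysmd2 and downward for Pcsk1 and Car2.

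The CD5 ranking of the 6 genes was thus large in both states by the way they were chosen. By log2 fold change, Chn2 was the 5th highest, Phactr2 the 7th, Coro2a the 10th and Lysmd2 the 17th among 10894 genes of at least 1 CPM in the higher rested group. Pcsk1 was the 2nd lowest and Car2 the 8th lowest there. In fresh cells Coro2a ranked 16th, Chn2 17th, Phactr2 18th and Lysmd2 39th among the higher genes, and Pcsk1 1st and Car2 14th among the lower ones. Over all 13309 genes tested, 8.2% were called in rested cells (4.74% higher and 3.46% lower in CD5hi) and 11.5% in fresh cells (6.86% higher and 4.59% lower), where a call is an adjusted p under 0.05. Since these contrasts chose the 6 genes, nothing is read from 4 of them being higher and 2 lower. Between same-numbered libraries the ratio of CD5hi over CD5lo ran from 5.82 to 10.9 when rested and 8.66 to 11 when fresh for Phactr2, from 5.40 to 7.65 and 7.87 to 15.4 for Coro2a, and from 4.65 to 6.09 and 4.66 to 6.15 for Lysmd2. The ratio of CD5lo over CD5hi ran from 8.02 to 11 when rested and 11.1 to 35.1 when fresh for Pcsk1, and from 3.52 to 4.46 and 2.91 to 5.14 for Car2. The difference when rested minus that when fresh was -0.09 ± 0.23 for Chn2, -0.43 ± 0.27 for Phactr2, -0.74 ± 0.33 for Coro2a, -0.06 ± 0.17 for Lysmd2, 0.75 ± 0.40 for Pcsk1 and 0.01 ± 0.29 for Car2. For Coro2a that value was -1.15 without fresh CD5lo replicate 2, and for Pcsk1 it was 1.11 without fresh CD5hi replicate 3.

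**Figure D2:**
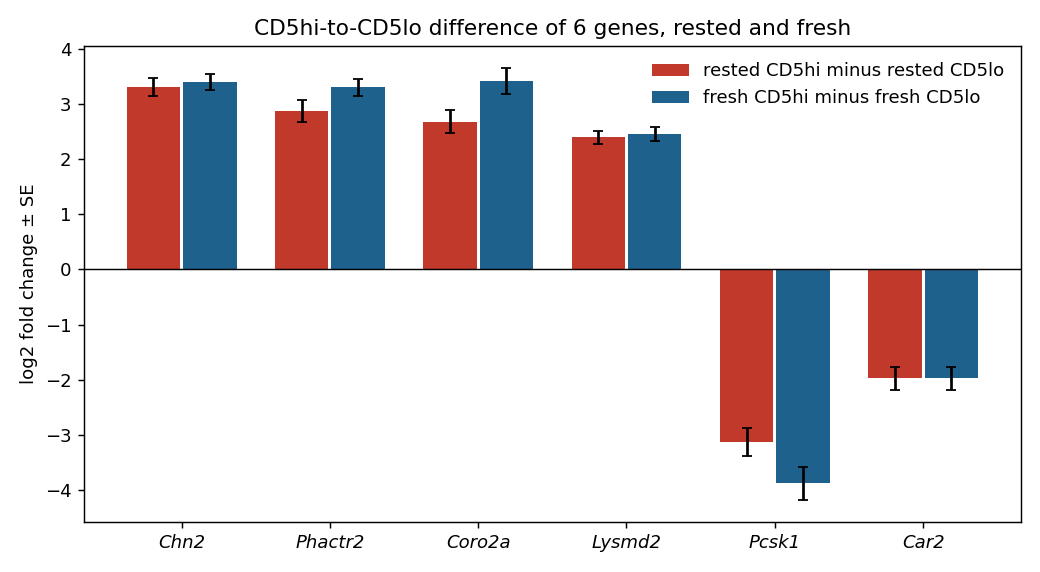
CD5hi-to-CD5lo difference of the 6 genes as log2 fold change, with error bars of 1 SE, for rested (red) and fresh cells (blue). Bars above 0 mean a higher level in CD5hi cells. The bars of a gene have like heights in both states, from 3.31 and 3.40 for Chn2 to -1.97 and -1.98 for Car2, with the widest gaps for Coro2a and Pcsk1.

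Resting split the 6 genes in 3 ways. The average resting change, over both CD5 groups, was tested with edgeR's quasi-likelihood test across all genes with Benjamini-Hochberg adjustment. Chn2 fell by 1.85 ± 0.11 on the log2 scale (adjusted p = 2.6e-12), to 7.72 ± 0.879 CPM in rested CD5hi cells, against 28.7 ± 1.42 CPM in fresh CD5hi cells. Phactr2 fell by 1.59 ± 0.13 (adjusted p = 6.1e-10), to 4.18 ± 0.791 CPM in rested CD5hi cells, against 14.6 ± 2.05 CPM in fresh CD5hi cells. Coro2a rose by 1.37 ± 0.16 (adjusted p = 2.6e-07), with 17.8 ± 1.23 CPM in rested CD5hi cells and 8.92 ± 2.59 CPM in fresh CD5hi cells. Pcsk1 rose by 1.94 ± 0.20 (adjusted p = 2.3e-08), with 12.0 ± 2.39 CPM in rested CD5lo cells and 4.03 ± 0.742 CPM in fresh CD5lo cells. Lysmd2 (0.07 ± 0.09, adjusted p = 0.46) and Car2 (-0.02 ± 0.14, adjusted p = 0.91) did not pass.

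Each of the 4 called changes was seen in 8 of 8 rested libraries, all of which lay beyond the fresh libraries of their CD5 group. Resting changed 65.2% of all genes tested, 32.3% upward and 32.9% downward, so 4 calls among 6 genes is near that share and is no property of the group. Cd5 itself fell by 0.87 ± 0.04 (edgeR adjusted p = 8.6e-14), so Chn2 and Phactr2 moved in the direction of the sort marker, and Coro2a, which ranks with Cd5 among naive cells, moved against it. Given per CD5 group without a test, the resting change was -1.90 ± 0.13 in CD5hi and -1.81 ± 0.17 in CD5lo cells for Chn2, and -1.81 ± 0.15 in CD5hi and -1.38 ± 0.21 in CD5lo cells for Phactr2. It was 1.0 ± 0.19 in CD5hi and 1.73 ± 0.27 in CD5lo cells for Coro2a, and 2.32 ± 0.32 in CD5hi and 1.57 ± 0.23 in CD5lo cells for Pcsk1.

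The libraries of rested replicate 3, which carry Y-linked reads as all fresh libraries do, were also fitted alone and moved those 4 genes in the same directions. With 1 library in each rested group, that fit assumes that the lone library varies like those of the other groups. Against all fresh libraries they gave -2.21 for Chn2, -2.23 for Phactr2, 1.59 for Coro2a and 2.23 for Pcsk1. They also gave 0.38 for Lysmd2 and 0.42 for Car2, against 0.07 and -0.02 in all libraries, where the test did not pass. The CD5hi and CD5lo libraries of replicate 3 share a number and were fitted as independent. A shift of that replicate therefore cannot be told apart from resting in this fit. In Car2 replicate 3 was the highest of the 4 libraries in both rested groups, and so it was in Lysmd2. CD5hi and CD5lo libraries with the same number deviated together within a state, so their counts were also summed per number. The 4 rested against 4 fresh sums gave -1.89 for Chn2, -1.78 for Phactr2, 1.08 for Coro2a (edgeR adjusted p = 0.0012) and 1.65 for Pcsk1, all called.

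**Figure D3:**
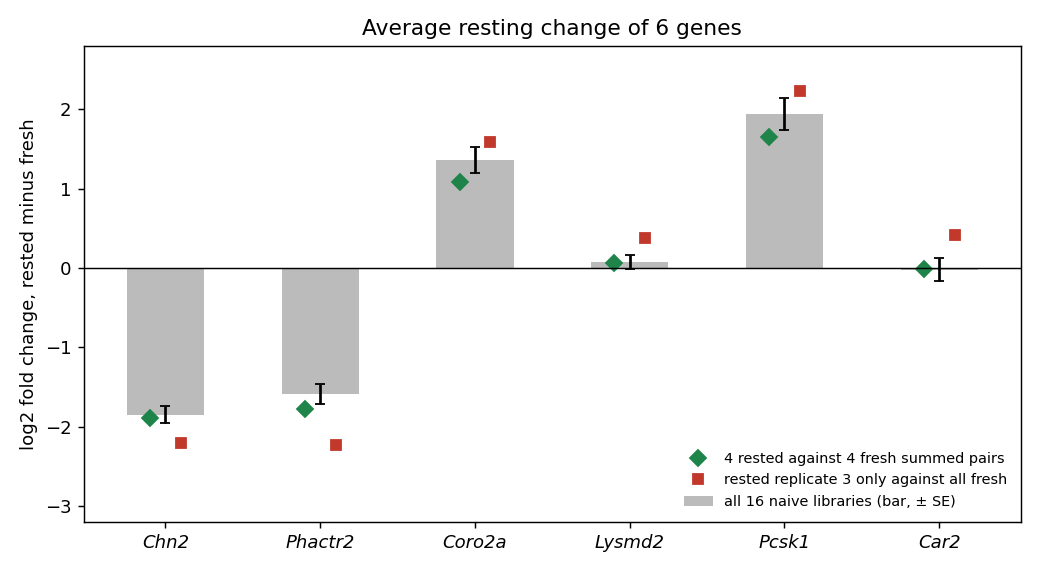
Average resting change of each gene as log2 fold change, rested minus fresh. Grey bars with 1 SE come from all 16 naive libraries, green diamonds from 4 rested against 4 fresh sums of same-numbered CD5hi and CD5lo libraries, and red squares from rested replicate 3 alone against all fresh libraries. All 3 estimates lie below 0 for Chn2 and Phactr2 and above 0 for Coro2a and Pcsk1, while for Lysmd2 and Car2 the bars lie near 0 and the red squares at 0.38 and 0.42.

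Treg extended the step from fresh CD5lo to fresh CD5hi cells, without overlap, for Coro2a, Phactr2 and Lysmd2. They did not do so for Chn2, Pcsk1 and Car2. Coro2a stood at 351, 360, 333 and 371 CPM in Treg, against a mean of 8.92 ± 2.59 CPM in fresh CD5hi cells and 0.826 ± 0.435 CPM in fresh CD5lo cells. That is 39.7-fold above fresh CD5hi cells (log2 fold change 5.31 ± 0.21), and no naive library came within reach of Treg. Phactr2 stood at 53.3, 46.9, 46.1 and 51.0 CPM in Treg, against 14.6 ± 2.05 CPM in fresh CD5hi cells and 1.48 ± 0.194 CPM in fresh CD5lo cells. It lay 3.38-fold above fresh CD5hi cells (1.76 ± 0.14), again without overlap.

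Lysmd2 stood at 13.3, 14.9, 15.3 and 13.7 CPM in Treg, against 10.9 ± 0.703 CPM in fresh CD5hi cells and 1.99 ± 0.126 CPM in fresh CD5lo cells. Treg were above all fresh CD5hi libraries by a small step of 0.39 ± 0.11, and their range overlapped that of rested CD5hi cells. Chn2 stood at 7.08, 6.24, 6.35 and 6.31 CPM in Treg, against 28.7 ± 1.42 CPM in fresh CD5hi cells and 2.73 ± 0.291 CPM in fresh CD5lo cells. It is the 1 gene of the 6 whose Treg level lay between both fresh groups without overlapping either, 4.41-fold below fresh CD5hi and 2.38-fold above fresh CD5lo cells.

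The pair of genes that were high in CD5lo cells were low in Treg. Pcsk1 stood at 0.341, 0.423, 0.149 and 0.341 CPM in Treg, against 0.262 ± 0.148 CPM in fresh CD5hi cells and 4.03 ± 0.742 CPM in fresh CD5lo cells. Car2 stood at 2.25, 2.67, 2.93 and 2.45 CPM in Treg, against 2.94 ± 0.609 CPM in fresh CD5hi cells and 11.6 ± 1.41 CPM in fresh CD5lo cells. Both overlapped fresh CD5hi cells and lay apart from fresh CD5lo cells. Against fresh CD5hi cells the Treg difference was 0.19 ± 0.39 for Pcsk1 and -0.20 ± 0.21 for Car2, and against fresh CD5lo cells it was -3.68 ± 0.30 and -2.17 ± 0.21 in that order. Treg replicate 3, with Y-linked reads like the fresh libraries, had the lowest Pcsk1, Coro2a and Phactr2 and the highest Lysmd2 and Car2 of the 4 Treg libraries.

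**Figure D4:**
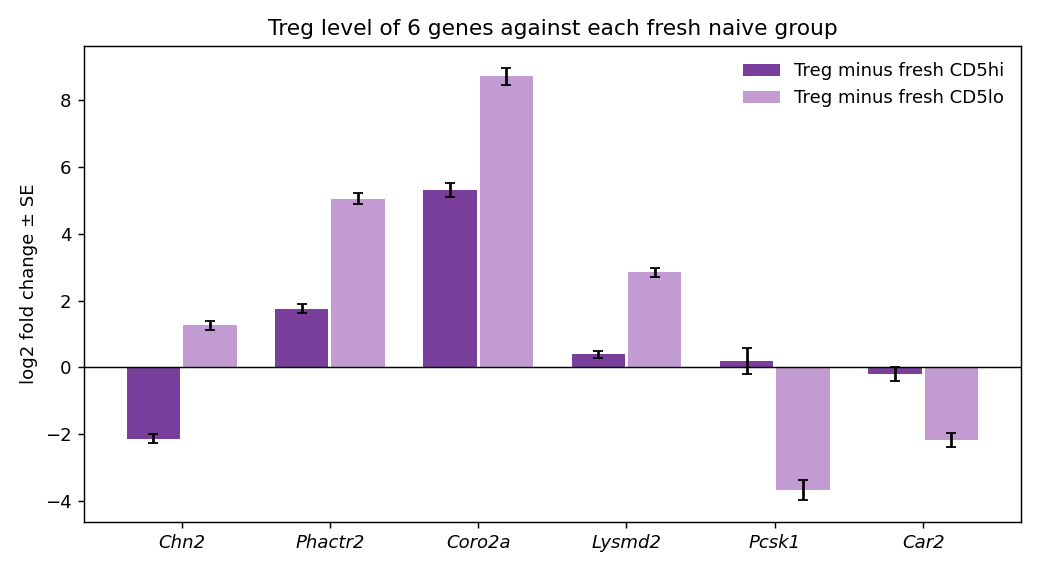
Treg level of the 6 genes as log2 fold change with 1 SE, against fresh CD5hi cells (dark) and fresh CD5lo cells (light). Both bars are above 0 for Phactr2, Coro2a and Lysmd2, the bars of Chn2 point in opposite directions (-2.14 and 1.25), and for Pcsk1 and Car2 the bar against fresh CD5hi cells lies near 0.

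The full order of the 5 groups differed from gene to gene. For Coro2a it was Treg, rested CD5hi, fresh CD5hi, rested CD5lo and fresh CD5lo cells, and for Phactr2 Treg, fresh CD5hi, rested CD5hi, fresh CD5lo and rested CD5lo cells, with no neighbours overlapping in either gene. For Chn2 it was fresh CD5hi, rested CD5hi, Treg, fresh CD5lo and rested CD5lo cells, of which rested CD5hi cells (7.72 ± 0.879 CPM) and Treg (6.50 ± 0.393 CPM) overlapped. For Lysmd2 the upper step held Treg, rested CD5hi and fresh CD5hi cells, of which rested CD5hi cells overlapped both others while Treg and fresh CD5hi cells did not overlap, and rested and fresh CD5lo cells formed a lower, overlapping step. For Car2 the steps were turned round, with fresh and rested CD5lo cells above an overlapping set of fresh CD5hi, rested CD5hi and Treg. For Pcsk1 the order was rested CD5lo, fresh CD5lo, rested CD5hi cells, Treg and fresh CD5hi cells, the last pair overlapping.

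Among 10234 genes of at least 1 CPM, those whose log2 level (with 0.5 CPM added) followed each member most closely over the 20 libraries were found by Pearson's r, which here mostly reflects the 5 groups that all genes share. Chn2 was nearest to Cd6, a receptor gene related to Cd5 (r = 0.961), Cldn10 (0.957) and Cd5 itself (0.943). Phactr2 was nearest to Ephx1, an epoxide hydrolase gene (0.992), Folr4, also called Izumo1r (0.991), and Arhgap20 (0.988). Coro2a was nearest to Swap70, an actin-binding protein gene (0.992), Syt11 (0.990) and the interleukin 2 receptor gene Il2rb (0.988). Lysmd2 was nearest to Chchd10 (0.951), Cd200 (0.939) and the spermine oxidase gene Smox (0.935). Pcsk1 was nearest to the potassium channel gene Kcnj16 (0.973), Traf5 (0.943) and the amino acid transporter gene Slc6a19 (0.94). Car2 was nearest to Dntt, the terminal transferase of thymocytes (0.953), the lysosomal lipase gene Lipa (0.910) and Ly6c1 (0.897). Dntt stood at 3.27 CPM in rested CD5hi and 30.2 CPM in rested CD5lo cells, and at 1.98 CPM in fresh CD5hi and 28.7 CPM in fresh CD5lo cells. Its rested and fresh libraries overlapped in CD5lo cells, and in CD5hi cells the rested ones (2.60 to 3.66 CPM) lay above the fresh ones (1.49 to 2.33 CPM).

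Relatives of the 6 genes, 127 genes in 7 lists by role, showed how far their families moved with CD5, and 113 of them were tested. In fresh cells 14 passed the test, 11 of them with more and 3 with less transcript in CD5hi cells, or 12.4% against 11.5% of all genes, and their median was 0.05 against -0.01. In rested cells 13 were called (9 higher and 4 lower), or 11.5% against 8.2%, with a median of 0.03 against 0.00. With same-numbered libraries as a block the counts were 34 when fresh and 28 when rested, while calls over all genes went up as well, to 2806 when fresh (1524 without the block) and 2372 when rested (1092 without it). Fitted on the compared groups alone, 26 relatives among 2183 genes were called when fresh and 4 among 495 when rested. Without rested CD5hi replicate 1 or rested CD5lo replicate 3 the rested count was 7 or 8.

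Around Chn2, the Rac switch list (GTPases, their activators and inactivators, 24 tested) had 5 higher and 1 lower member in fresh CD5hi cells and 3 higher and 1 lower in rested ones, where 11.5% (fresh) and 8.2% (rested) of all genes were called. Of the 6 fresh calls, 3 of small size (Dock2 and Prex1 among them) were all lost without fresh CD5lo replicate 2, and each of these was lost without at least 5 of the 8 single libraries. The rested call on Racgap1 (0.44 ± 0.12) was lost without rested CD5hi replicate 1 or 2 or rested CD5lo replicate 1 or 3. The Rac activator genes Vav2 and Tiam1 were higher in both states, Vav2 by 0.64 ± 0.06 when rested and 0.54 ± 0.06 when fresh, and Tiam1 by 0.69 ± 0.09 when rested and 0.52 ± 0.09 when fresh. Dock2, another activator, was lower when rested (-0.27 ± 0.05, edgeR adjusted p = 8.1e-04). Of 20 diacylglycerol effectors tested, 3 were higher in fresh CD5hi cells, namely the protein kinase C genes Prkca (0.37 ± 0.09) and Prkch (0.37 ± 0.05) and the diacylglycerol kinase gene Dgkz (0.30 ± 0.04). In rested cells 2 were higher, Prkch (0.20 ± 0.05) and the diacylglycerol kinase gene Dgkh (0.32 ± 0.10), and the diacylglycerol kinase gene Dgkd was lower (-0.18 ± 0.05). The call on Dgkh lay at the threshold (edgeR adjusted p = 0.050 after rounding, with 0.018 to 0.19 over its alternatives) and was lost without rested CD5hi replicate 1 or 4 or rested CD5lo replicate 2, 3 or 4. The rested call on Prkch was lost without rested CD5hi replicate 2 or rested CD5lo replicate 3, and that on Dgkd without any of 4 single libraries (rested CD5hi replicates 1 and 2, rested CD5lo replicates 3 and 4).

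Around Phactr2 and Lysmd2 no relative was called by edgeR between CD5hi and CD5lo cells. Over all genes 11.5% were called when fresh and 8.2% when rested, the shares to set beside each count of calls in the lists that follow. Lists this short cannot show a departure from those shares. For the 15 tested genes of the PHACTR, MRTF and SRF list, 3 when rested and 2 when fresh had an unadjusted p under 0.05, and DESeq2 called 0. For the 5 LysM and related genes it was 0 when rested and 1 when fresh, and DESeq2 called 0. The share of all genes under that unadjusted limit is not given here, so nothing is read from the unadjusted counts. Of the 22 coronin, ARP2/3 and NCoR genes, 1 was higher in each state, the ARP2/3 subunit gene Arpc2 when rested (0.17 ± 0.04) and Arpc1b when fresh (0.20 ± 0.06). The Arpc2 call was lost without rested CD5hi replicate 1 or rested CD5lo replicate 3, and the Arpc1b call without any 1 of the 8 fresh libraries. Of 12 proprotein processing genes tested, the membrane carboxypeptidase gene Cpm was lower in CD5hi cells in both states, by -0.72 ± 0.11 when rested and -0.71 ± 0.11 when fresh, which is the direction of Pcsk1, and 1 other gene was higher in each state. These were the convertase gene Pcsk4 when rested (0.48 ± 0.12), whose call was lost without rested CD5hi replicate 1 or rested CD5lo replicate 4, and the proenkephalin gene Penk when fresh, at only 0.174 CPM in CD5hi and 0.00851 CPM in CD5lo cells. Of 15 carbonic anhydrase and acid-base genes tested, 2 were higher and 1 lower in rested CD5hi cells, and 1 higher and 1 lower in fresh ones. The lactate exporter gene Slc16a3 was higher in CD5hi cells, by 1.03 ± 0.20 when rested and 1.59 ± 0.18 when fresh, and the carbonic anhydrase-related gene Car11 was lower when fresh (-0.60 ± 0.15). The lower gene when rested was the monocarboxylate transporter gene Slc16a1 (-0.24 ± 0.06), a call lost without rested CD5hi replicate 1 or 4 or rested CD5lo replicate 4. The carbonic anhydrase gene Car12 was higher in rested CD5hi cells (1.28 ± 0.30), a call lost when only the rested groups were fitted (edgeR adjusted p = 0.17, the highest over its alternatives). The rested call on Slc16a3 was lost when only the rested groups were fitted (edgeR adjusted p = 0.067, with 1.1e-05 to 0.067 over its alternatives).

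On resting, 82 of the 113 relatives were called (35 higher and 47 lower), or 72.6% against 65.2% of all genes, with a median of -0.03 against -0.01. Beside Chn2, which fell, Tiam1 rose by 1.16 ± 0.06, the Rac inactivator gene Arhgap15 by 1.07 ± 0.09 and the diacylglycerol-responsive Rasgrp1 by 1.03 ± 0.06, and Prkca rose by 0.92 ± 0.06. Beside Phactr2, which also fell, the SRF coactivator gene Mkl1 rose by 1.17 ± 0.05 (edgeR adjusted p = 3.8e-15) and the vinculin gene Vcl by 0.80 ± 0.08. Beside Coro2a, which rose, the coronin gene Coro7 fell by 0.69 ± 0.04 and the ARP2/3 subunit gene Arpc3 rose by 0.48 ± 0.06. Beside Lysmd2, the LysM genes Lysmd1 (0.37 ± 0.05) and Lysmd3 (0.49 ± 0.10) rose and Lysmd4 fell (-0.24 ± 0.09), a call lost without fresh CD5hi replicate 1. Beside Pcsk1, the convertase gene Furin rose by 0.84 ± 0.04, with 97.5 CPM in rested CD5hi cells and 98.5 CPM in rested CD5lo cells, against 56.1 CPM in fresh CD5hi cells and 53.7 CPM in fresh CD5lo cells. The peptide-amidating enzyme gene Pam fell by 1.06 ± 0.14. Beside Car2, which did not pass, Car12 fell by 1.12 ± 0.20 and Slc16a3 by 0.96 ± 0.13. With rested replicate 3 only, Car12 stood at -2.16 and Pam at -1.60.

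Against the mean of both fresh naive groups, 71 of the 113 relatives were called in Treg (40 higher and 31 lower), or 62.8% against 61.3% of all genes, with a median of 0.01 against -0.03. The closest relative of Coro2a, Coro2b, was higher in Treg as well, by 4.10 ± 0.28 (edgeR adjusted p = 2.9e-11), at 8.41 CPM in Treg, against 0.624 CPM in fresh CD5hi cells and 0.382 CPM in fresh CD5lo cells. Coro1b was higher by 0.58 ± 0.07. Tiam1 was higher by 4.85 ± 0.08, at 224 CPM in Treg, against 9.32 CPM in fresh CD5hi cells and 6.51 CPM in fresh CD5lo cells. Rasgrp2 was lower (-1.33 ± 0.06), and Ncoa7, which also carries a LysM domain, was higher (1.02 ± 0.09). Srgap3, of the Rac switch list, was higher by 3.29 ± 0.21 and the diacylglycerol kinase gene Dgkg by 3.19 ± 0.31. In the PHACTR, MRTF and SRF list the filamin gene Flna was lower (-0.57 ± 0.06) and the tropomyosin gene Tpm4 higher (0.36 ± 0.06). Slc16a3 was higher by 2.67 ± 0.14 and the mitochondrial carbonic anhydrase gene Car5b by 2.85 ± 0.20. The carboxypeptidase E gene Cpe was called as higher, at 4.30 CPM in Treg, against 0.00886 CPM in fresh CD5lo cells and no count in fresh CD5hi cells. Penk, the gene of a prohormone that convertases of the Pcsk1 family process, was called as higher, at 40.6 CPM in Treg, against 0.174 CPM in fresh CD5hi cells and 0.00851 CPM in fresh CD5lo cells.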

How the data were processed

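Counts per gene symbol in 20 libraries, as deposited by the authors, were used. Build mm9, edgeR, featureCounts 1.4.5 (Subread) and TopHat2 2.0.11 were involved, per the submitters' processing notes, in an order not given in the sources used here, nor are annotation and strand setting. Per the labels' protocols, polyadenylated RNA was read for 50 cycles from both ends. Even numbers made up 62.3 to 66.2% of the counts from 1 to 10 in each library, as when both mates of a fragment add to a count, so counting error is larger than the counts imply. A second deposited table of normalized values was not used. Libraries were grouped by title: the cell type label opens with CD5lo naive also for CD5hi and Treg libraries, against the titles and the sort gates in the same label.

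Counts were fitted with edgeR 4.0.16 (R 4.3.3; quasi-likelihood test, trimmed-mean scaling, default filter, 5 groups, 15 residual degrees of freedom), with Benjamini-Hochberg adjustment over 13309 genes. Calls are at a false discovery rate of 0.05. The SE is the log2 fold change over the square root of its F. Alternatives were DESeq2 1.42.0, size factors of its type in edgeR, other filters (none, or at least 1 CPM in 4 libraries), the compared groups alone, replicate blocks, sums per number, replicate 3 alone and leaving out each library. The fit was tested on simulated data. Same-numbered CD5hi and CD5lo libraries deviated together, by the correlation over genes of deviations from the group means. When fresh it was at least 0.16 for same and at most 0.069 for other numbers, with 4 of 4 numbers nearest their own. When rested it was at least 0.189 for same but up to 0.288 for other numbers, with 3 of 4 nearest their own. The numbers were thus taken to pair libraries within a state, less surely when rested. Between rested and fresh groups the lowest same-number value was -0.0604. Between Treg and rested groups the highest were 0.357 (CD5hi) and 0.376 (CD5lo). The labels number the libraries without saying which animals each pool came from, so p-values measure the spread between these libraries.

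The members, the lists and the tests were chosen with earlier results of these data known. Named genes are the members, Cd5 and Foxp3, the 3 genes nearest each member, and from each list up to 2 called genes per comparison by size, where the higher group reached 1 CPM, or, for a count of 5 or fewer, any member of the list.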

Additional observations from a re-analysis of the deposited data

Results flagged for a closer look

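In 2 of 30 sets of 4 libraries, 1 library lay apart from the other 3 by more than Dixon's 95% limit for the gap as a share of the range, and chance gives about 1 such set in 20. Both concern Chn2. In Treg, replicate 1 stood at 7.08 CPM and the others at 6.24 to 6.35 CPM, a gap of 0.872 of the range. In rested CD5hi cells, replicate 2 stood at 6.41 CPM and the others at 8.05 to 8.32 CPM, a gap of 0.855 of the range. Without that rested library the average resting change of Chn2 kept its call, with an adjusted p of at most 2.4e-11 over all single libraries left out (edgeR quasi-likelihood test).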

How the results depend on the processing

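Of 722 values recomputed for 38 results, 703 kept their direction, their call or their size. A count was kept within a fixed fold, and an untested member value if it shifted by less than the SD within groups. A tested member was kept with the same call and, where called, the same direction. Calls on single relatives are not among these values. On resting, that on Dgke was lost under 18 of 24 alternatives and that on Rac1 under 0 of 24. The resting calls on Chn2, Phactr2, Coro2a and Pcsk1 held under all 24 alternatives. With rested replicate 3 only, Lysmd2 rose by 0.38 and Car2 by 0.42, where Car2 had -0.02 before, and among relatives Dgke, called at 0.10, turned to -0.064; the cause was not tested. With Treg replicate 3 only, 5282 genes were called against 8152, and the Treg difference from the mean of fresh naive cells was 1.72 for Lysmd2 (1.62 in all libraries) and -2.78 for Pcsk1 (-1.74). Fitted on the compared groups alone, 495 genes were called when rested against 1092, with 4 relatives against 13, and 2183 genes against 1524 when fresh, with 26 relatives against 14. The replicate block within a state called 2806 genes against 1524 when fresh and 2372 against 1092 when rested, with 34 and 28 relatives. With the replicate block over all groups, 8798 genes were called on resting against 8683, and no call on a member changed.

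Without single libraries, rested calls on relatives ran from 7 to 15, and the Treg difference of Pcsk1 from -1.90 to -1.49. The fresh CD5 difference of Pcsk1 ran from -4.24 to -3.62. The rested minus fresh CD5 difference ran from -0.25 to 0.17 for Chn2, from -1.15 to -0.50 for Coro2a and from 0.50 to 1.11 for Pcsk1. The lowest groups, Pcsk1 in fresh CD5hi cells (4 to 25 counts per library) and Phactr2 and Chn2 in rested CD5lo cells (12 to 41 and 18 to 52), limit the precision of their folds. Calls rest on a spread shared by all 5 groups.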
